A study of Caenorhabditis elegans with 47 samples.

Results

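Worms expressing Abeta, the amyloid beta peptide of Alzheimer's disease, were compared with worms expressing GFP::degron, a fluorescent protein joined to a peptide that marks it for degradation, 16 h after a temperature upshift. The comparison was chosen by the labels: the 4 arrays of Abeta worms at T16 against the 4 arrays of GFP::degron worms at T16, which are 8 of the 47 arrays of the series. Per the labels, both strains of Caenorhabditis elegans grew at 16 °C on OP50 bacteria until early L3, the larval stage before the last, were moved to 25 °C, and were harvested 16 h after that move. The 4 arrays of a strain were labelled as biological repeats. Another strain, expressing GFP, was sampled in the same way at T16 and is used here for its levels and to set a stage score. T8 and T12 had 4 and 4 Abeta arrays and 4 and 5 GFP::degron arrays, and T0, T4 and T20 had 1 array of each strain. The labels name no promoter, allele or strain for the transgenes, give no tissue or age beyond the hours, and do not say if the strains share other mutations. The probe sets used here measure neither Abeta nor GFP, so the transgenes themselves were not checked.

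Abeta made in worm cells forms aggregates, and such strains are used to follow what misfolded protein does to a living animal. Cells answer misfolded protein with heat shock proteins, which hold or refold it, and with the proteasome and autophagy, which break it down. A degron marks a protein for degradation, and neither strain is a worm without a foreign protein. Whether GFP::degron also aggregates was not measured here, so the strains cannot be read as aggregating against soluble protein. At the temperatures used, worms that leave L3 pass through L4, the last larval stage, in which hermaphrodites make sperm and then oocytes and build the adult cuticle. A shift in developmental timing between strains therefore shows in sperm, oocyte and cuticle genes.

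Levels are log2(intensity + 1) after each array was shifted to a common median, so a difference of 1 is a 2-fold change and a level near 0 is an intensity near 0. A gene passed when its Benjamini-Hochberg adjusted p over 17118 genes, from limma, was under 0.05. On the 8 arrays the median intensity was 96.4 to 115.9, between 10.53% and 16.56% of probe sets had an intensity under 16, and pairs of arrays correlated at r = 0.865 to 0.9808 across genes. Intensities give no read depth, so precision depends on how many arrays there are, on their spread and on how bright a gene is. Of 6 body-wall muscle markers, all were well measured, with levels from 7.96 to 12.44, and their median difference was -0.08. Of 5 sperm markers all were higher in Abeta worms, with a median difference of 3.04, and of 8 neuronal markers all were lower, with a median difference of -0.27.

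The arrays differed in a stage score. The score was computed for every array by projecting it on the change of GFP worms between T8 and T16 over the 500 genes with the largest statistic in that change, so 0 is the GFP T8 mean without replicate 3, a dim array, and 1 is the GFP T16 mean. Abeta worms at T16 scored 0.49, 0.79, 0.98 and 0.55 in replicates 1 to 4, against -0.12, 0.81, 0.18 and 0.09 in GFP::degron worms. Replicate 2 of the GFP::degron worms thus lay among the Abeta arrays, while the other 3 lay below all of them. The mean difference of 0.461 had p = 0.1143 in an exact two-sided permutation test over 70 regroupings. Without GFP::degron replicate 2 it was 0.652, with p = 0.0286 in the same exact test, the smallest that 35 regroupings of 4 and 3 arrays can give. That array was left out because of its values, so this p describes the arrays that remain.

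The scores at other hours show what surrounds T16. At T12 the Abeta arrays scored -0.177 to -0.124 and the GFP::degron arrays -0.22 to -0.144, and at T20 the single arrays scored 0.961 and 0.743. In this score both strains had thus moved little by T12, and both were far along at T20. The score follows the change of GFP worms between T8 and T16, so it does not show other development before T12. GFP worms at T16 scored 0.938 to 1.06, above 3 of 4 Abeta arrays and all 4 GFP::degron arrays.

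**Figure D1:**
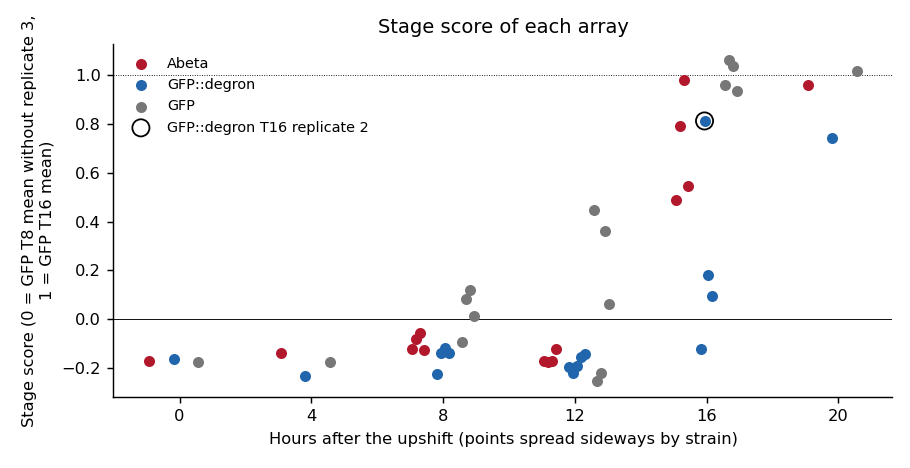
Stage score (vertical axis, no unit) of each of the 47 arrays by hours after the upshift (horizontal axis); each point is 1 array, red for Abeta, blue for GFP::degron, grey for GFP, and the ring marks GFP::degron T16 replicate 2. At T16 the ringed array scored 0.81, while the other 3 GFP::degron arrays lay between -0.12 and 0.18 and the 4 Abeta arrays between 0.49 and 0.98.

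With all 8 arrays, 6 of 17118 genes passed (0.0351%), 2 higher in Abeta worms (0.0117%) and 4 lower (0.0234%). The higher genes were lact-4, which encodes a protein with a beta-lactamase domain, and str-125, of the str family of chemoreceptor genes. The lower genes were gtnt-8, F14F8.8, K09C6.9 and rnh-1.3, the last of the ribonuclease H family, whose enzymes cut RNA paired with DNA. An unadjusted p under 0.05 was held by 1769 genes (10.3%), 1000 higher (5.84%) and 769 lower (4.49%). The 4 Abeta arrays lay wholly above the 4 GFP::degron arrays for 310 genes (1.81%) and wholly below them for 398 (2.33%).

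The largest difference among them was at gtnt-8. Its levels were -0.03, 0.00, -0.22 and -0.13 in Abeta worms, against 7.45, 7.43, 7.71 and 7.64 in GFP::degron worms. The Abeta arrays were at the bottom of the scale and the GFP::degron arrays lay close together, replicate 2 included. The difference was -7.65 ± 0.131 (SE, adjusted p = 3.51e-08 by limma), and it is no fold change because Abeta worms had an intensity near 0. The same gap stood at the upshift itself, with 0.85 in Abeta worms and 8.42 in GFP::degron worms at T0 (1 array each), and at T12 with 0.10 ± 0.297 (SD, n = 4) and 8.23 ± 0.238 (SD, n = 5). At T16 GFP worms were at -0.03 ± 0.0596 (SD, n = 4), so GFP::degron worms were the strain with a measurable level.

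F14F8.8 had levels of 4.61, 4.08, 3.87 and 5.04 in Abeta worms, against 7.90, 7.65, 9.11 and 8.41 in GFP::degron worms. The groups did not overlap, and the difference of -3.87 ± 0.367 (SE, adjusted p = 0.0148 by limma) is a 14.6-fold lower value. GFP worms at T16 lay between them, at 6.25 ± 0.905 (SD, n = 4). K09C6.9 had 7.59, 7.27, 7.20 and 7.90 in Abeta worms, against 10.08, 9.28, 10.23 and 10.12 in GFP::degron worms, a difference of -2.44 ± 0.252 (SE, adjusted p = 0.0232 by limma). Both genes were already lower in Abeta worms at T0, at 5.73 against 9.92 for F14F8.8 and 8.76 against 11.26 for K09C6.9 (1 array each).

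The ribonuclease H gene rnh-1.3 had the smallest difference among the 4 lower genes and a narrow spread. It stood at 7.77, 8.08, 7.79 and 7.86 in Abeta worms, against 9.54, 9.64, 9.47 and 9.40 in GFP::degron worms, which is 3.12-fold lower (difference -1.64 ± 0.131, SE, adjusted p = 0.00493 by limma). At T8 its levels were 6.73 ± 0.295 in Abeta worms and 8.92 ± 0.427 in GFP::degron worms (SD, n = 4 each), so the level was higher at T16 than at T8 in both strains while the order of the strains was the same. The GFP arrays at T16 spread from 7.58 to 9.72, across the levels of both strains. With the spread estimated from the 38 arrays of T8, T12 and T16, the same difference of rnh-1.3 had adjusted p = 0.315 by limma and did not pass.

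Among the higher genes, lact-4 had 9.47, 9.49, 9.63 and 9.33 in Abeta worms, against 8.09, 8.39, 8.18 and 8.04 in GFP::degron worms. The groups did not overlap, and the difference of 1.3 ± 0.137 (SE, adjusted p = 0.0232 by limma) is 2.46-fold. Its order at other hours was not constant, with 7.94 ± 0.19 in Abeta worms and 8.34 ± 0.405 in GFP::degron worms at T8 (SD, n = 4 each), 9.11 ± 0.696 (SD, n = 4) and 8.19 ± 0.167 (SD, n = 5) at T12, and 9.70 and 7.99 at T20 (1 array each). GFP worms at T16 were at 7.46 ± 0.408 (SD, n = 4). The probe set of lact-4 is of a kind that can match several transcripts.

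The chemoreceptor gene str-125 was at the edge of measurement. It had 2.33, 2.78, 2.63 and 2.85 in Abeta worms, against -0.03, -0.26, -0.10 and 0.13 in GFP::degron worms, a difference of 2.71 ± 0.16 (SE, adjusted p = 0.000617 by limma). With 16 in place of 1 added to the intensities the difference was 0.46 and did not pass (adjusted p = 0.387), so the call rests on intensities of a few units. With an intensity trend and robust moderation in limma it did not pass either (adjusted p = 0.332).

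**Figure D2:**
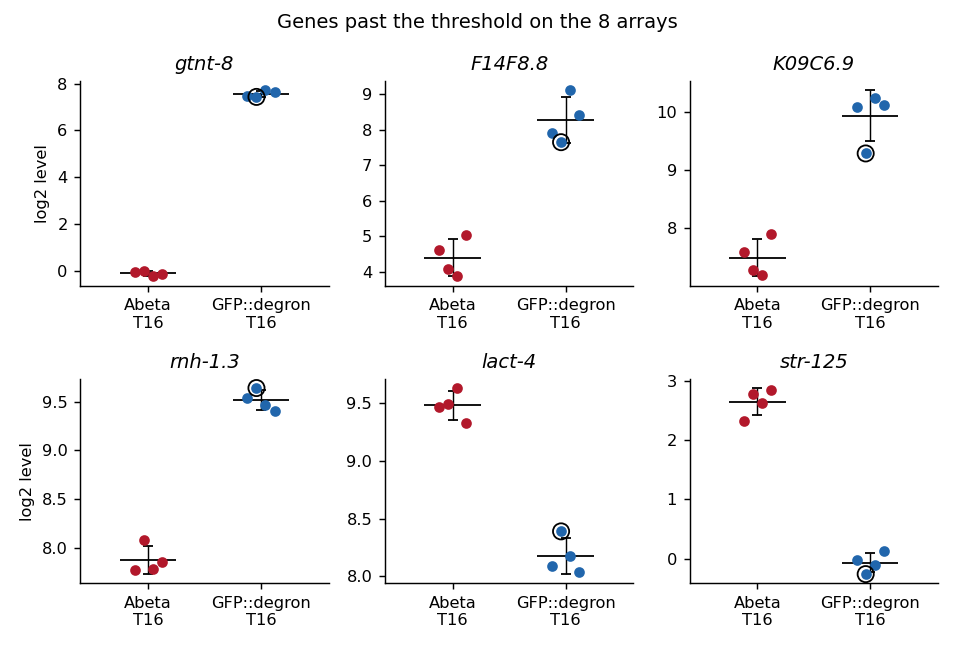
Log2 level (vertical axis) of the 6 genes that passed, in Abeta T16 worms (red, left) and GFP::degron T16 worms (blue, right); points are arrays, horizontal lines the means with SD bars (n = 4 each), and the ring marks GFP::degron replicate 2. In each panel the groups are apart, by as much as 7.65 for gtnt-8 and as little as 1.3 for lact-4, and the vertical axes differ between panels.

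Single arrays decided some of these calls. When each of the 8 arrays was left out in turn, gtnt-8, rnh-1.3 and str-125 passed 8 of 8 times, F14F8.8 passed 5 times, K09C6.9 passed 2 times and lact-4 passed 1 time. The differences moved little, from -4.08 to -3.59 for F14F8.8, from -2.66 to -2.34 for K09C6.9 and from 1.25 to 1.37 for lact-4. F14F8.8 missed the threshold without Abeta replicate 1 or 2 or GFP::degron replicate 4, at adjusted p = 0.0872, 0.128 and 0.106 by limma. K09C6.9 passed without Abeta replicate 4 or GFP::degron replicate 2, and lact-4 passed without GFP::degron replicate 2.

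Whether the strain difference at T16 departed from the same difference at T8 and T12 was tested on 25 arrays. By limma, 1 gene passed (0.00584%), str-125, by 3.47 ± 0.301 (SE, adjusted p = 2.24e-06). The call was lost (0 genes) under quantile normalization, with a pseudocount of 16 and with trend and robust moderation, and str-125 was too dim for the filter on intensity. An unadjusted p under 0.05 was held by 1181 genes (6.9%), 577 with a departure above 0 (3.37%) and 604 below it (3.53%). At T8 str-125 had a level of 0.01 ± 0.0622 in Abeta worms and 1.67 ± 0.476 in GFP::degron worms (SD, n = 4 each), the opposite order, again near the bottom of the scale. For gtnt-8, F14F8.8, K09C6.9 and rnh-1.3 the departure was 0.22, -0.10, -0.38 and 0.11, with adjusted p between 0.943 and 0.991, and for lact-4 it was 1.04 ± 0.292 (SE, adjusted p = 0.455). Of the 6 genes, 5 had the T16 direction at T0, 5 at T4, 4 at T8, 6 at T12 and 6 at T20, against 54.3%, 53.7%, 64.2%, 57.3% and 56.9% of all genes.

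Without GFP::degron replicate 2, 191 genes passed (1.12%), 167 higher in Abeta worms (0.976%) and 24 lower (0.14%). The 6 genes of the full comparison were among them. Leaving out any other array gave between 3 and 6 genes. For 52.9% of the 191 the adjusted p was 0.04 or more, so the count moves with small changes of the threshold. The array left out was singled out by its levels of these same genes, and its removal lowers their spread by construction.

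The 167 higher genes were chosen without GFP::degron replicate 2, and 2 of them passed with it, so where that array lies in them follows from the choice and is a description. Their median level was 7.27, 8.05, 8.58 and 7.26 in Abeta replicates 1 to 4, against 4.46, 7.72, 5.45 and 5.08 in GFP::degron replicates 1 to 4. GFP::degron replicate 2 lay on the Abeta side of the midpoint for 164 of the 167, the GFP::degron array of T20 for 159, and the GFP T16 mean for 163. The T12 means lay on that side for 9 genes in Abeta worms and 3 in GFP::degron worms. Of the 167, 91 (54.5%) were among the 500 stage genes, which are 2.92% of all genes, and these 91 were 18.2% of the stage genes. The median difference of the 167 was 3.57 without replicate 2, 2.59 with all 8 arrays and 0.50 with the stage score in the fit of all 8 arrays. Replicate 2 stood apart in the score over these 500 stage genes, so the overlap with them follows in part from the choice. The score is built from them, so the smaller difference with the score in the fit does too. At T12 the median level of the 167 was 4.04 in Abeta worms and 3.74 in GFP::degron worms. At T20 it was 8.58 and 7.97, so it was higher at the later hour in both strains. The part of developmental timing in their difference was not tested, because strain and stage score differ together at T16.

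Sperm genes were among these higher genes. Major sperm proteins are the small motility proteins of the crawling worm sperm, and they also signal to oocytes. Of 23 measured genes for them, 0 passed with all 8 arrays, 23 were higher in Abeta worms at an unadjusted p under 0.05 against 5.84% of all genes, and their median difference was 3.00 against -0.04 over all genes. Their mean level was 11.80, 13.04, 13.48 and 11.87 in Abeta worms, against 6.66, 12.86, 9.68 and 8.66 in GFP::degron worms. All 3 GFP::degron arrays other than replicate 2 lay below all 4 Abeta arrays for 23 of 23 genes, and replicate 2 lay above the lowest Abeta array for 23 of 23. Replicate 2 was set apart after its values were seen, and the share of all genes with this order was not computed. Without replicate 2, 12 of the 23 passed, all higher, against 0.976% of all genes. With the stage score the median difference was 0.43. In that fit 0 of the 23 had an unadjusted p under 0.05, against 3.49% of all genes on the higher side. Of the 23, 5 were among the 500 genes that set the score, which are 2.92% of all genes, so the score is in part a measure of sperm genes. Sequences of these genes are nearly alike, so a probe set can read several of them, and fewer sperm cells and less RNA per cell cannot be told apart in whole worms.

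Single sperm genes gave the same order of arrays. The major sperm protein gene msp-64 had 11.57, 13.05, 13.45 and 11.60 in Abeta worms, against 5.54, 12.47, 9.07 and 6.98 in GFP::degron worms. Its difference was 3.91 ± 1.33 with all 8 arrays (SE, adjusted p = 0.477 by limma) and 5.22 ± 0.845 without replicate 2 (adjusted p = 0.0472). At T12 it stood at 5.31 ± 0.375 (SD, n = 4) in Abeta worms, against 5.47 ± 0.218 (SD, n = 5) in GFP::degron worms, and at T20 at 13.47 and 12.71 (1 array each). The sperm-specific gene ssq-2 had 11.48, 13.51, 14.05 and 11.87 in Abeta worms, against 5.96, 12.69, 6.22 and 6.15 in GFP::degron worms, with adjusted p = 0.477 for 8 arrays and 0.00604 without replicate 2 (limma). In both genes GFP::degron replicates 1, 3 and 4 lay far below every Abeta array. Without replicate 2, msp-142, named by the rule, differed by 4.07, and msp-63, chosen after its values were seen, by 5.66.

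For the 38 other measured sperm genes the differences were mostly positive too. Of them 0 passed with all 8 arrays, 37 had a positive difference, 21 had an unadjusted p under 0.05, all higher (5.84% of all genes), and their median difference was 1.34. Without replicate 2, 3 passed, all higher, against 0.976% of all genes. Among them spe-46, whose mutants are defective in spermatogenesis, differed by 2.69 ± 0.43 (SE, adjusted p = 0.0459 by limma). The gene spe-44, a transcription factor that switches on sperm genes, differed by 0.97 ± 0.289 with all 8 arrays (adjusted p = 0.477) and by 1.23 ± 0.219 without replicate 2 (adjusted p = 0.051). The argonaute gene alg-3, which works with small RNAs in sperm development and was chosen after its values were seen, differed by 1.78 and 2.43 in these fits, and the sperm activation gene snf-10 by 1.88 and 2.67. The level of snf-10 spread from 5.07 to 6.29 in Abeta worms and from 2.08 to 5.91 in GFP::degron worms. Of the 38 genes, 28 had GFP::degron replicates 1, 3 and 4 below all 4 Abeta arrays, an order whose share over all genes was not computed.

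**Figure D3:**
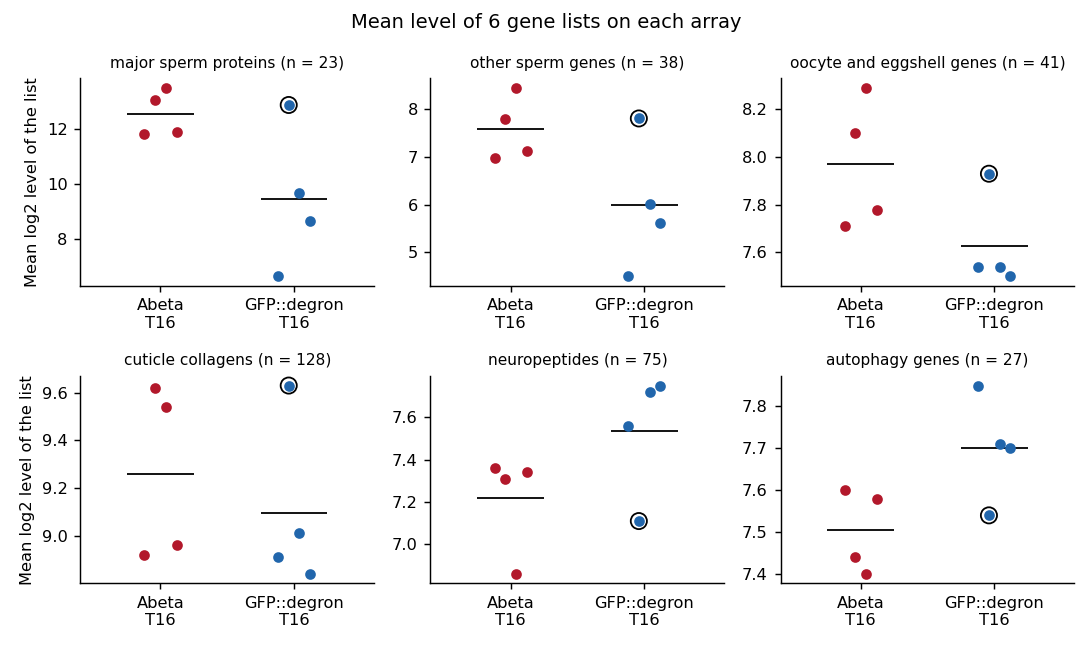
Mean log2 level (vertical axis) of 6 gene lists on each Abeta T16 array (red, left) and GFP::degron T16 array (blue, right), with the number of genes measured in brackets; lines are group means, the ring marks GFP::degron replicate 2, and the vertical axes differ. In the sperm panels the ringed array is level with the Abeta arrays, at 12.86 for major sperm proteins and 7.8 for other sperm genes. The other 3 GFP::degron arrays lie between 6.66 and 9.68 for major sperm proteins and between 4.5 and 6.02 for other sperm genes.

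Cuticle collagens, the structural proteins of the worm's outer layer, had members with differences of both signs. Of 128 col genes 0 passed with all 8 arrays, 8 were higher and 16 lower at an unadjusted p under 0.05, against 5.84% and 4.49% of all genes, and the median difference was -0.17. Without replicate 2, 7 passed higher and 1 lower, against 0.976% and 0.14% of all genes. The 7 included col-63 and col-38. The level of col-63 was 17.68, 19.11, 19.78 and 17.88 in Abeta worms, against 8.38, 19.04, 8.66 and 8.39 in GFP::degron worms, so 7 arrays split by strain and replicate 2 went with Abeta. Some of these levels are above the largest value a 16-bit scanner can hold, so they depend on how the authors summarised the probe set, which can also match several transcripts. For col-38 the levels were 14.42, 15.38, 15.71 and 14.41 in Abeta worms, against 9.32, 15.38, 11.88 and 8.92 in GFP::degron worms.

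For another pair, col-110 and col-79, the strains did not overlap on the 8 arrays. The levels of col-110 were 8.05, 8.84, 9.0 and 8.1 in Abeta worms, against 6.26, 7.79, 6.87 and 6.63 in GFP::degron worms, a difference of 1.61 ± 0.36 (SE, adjusted p = 0.477 by limma) that passed without replicate 2 (1.91 ± 0.292, adjusted p = 0.0409). For col-79 the differences were 1.78 ± 0.382 (adjusted p = 0.477) and 2.13 ± 0.275 (adjusted p = 0.0262). On the lower side, col-180 differed by -0.87 ± 0.156 with all 8 arrays (adjusted p = 0.339) and by -0.95 ± 0.162 without replicate 2 (adjusted p = 0.0499). The level of col-150 was 9.55, 10.01, 9.77 and 9.65 in Abeta worms, against 10.33, 10.68, 10.75 and 10.48 in GFP::degron worms, with no overlap, but its difference of -0.82 ± 0.159 (adjusted p = 0.461) passed in neither fit. A second, dim probe set of col-150 with a mean level of 3.79 differed by 0.02.

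Of the 19 measured collagens named for the body shape of their mutants, 1 passed higher and 1 lower without replicate 2. Over all genes 0.976% and 0.14% did. The blister collagen gene bli-2, needed for the struts of the adult cuticle, had 10.39, 10.91, 11.11 and 10.34 in Abeta worms, against 6.73, 10.03, 8.83 and 7.5 in GFP::degron worms, and differed by 3.00 ± 0.47 without replicate 2 (SE, adjusted p = 0.0437 by limma). The collagen gene rol-6 had 12.41, 12.19, 12.00 and 12.07 in Abeta worms, against 13.31, 12.46, 13.04 and 13.04 in GFP::degron worms, and differed by -0.96 ± 0.163 (adjusted p = 0.0499). Neither passed with all 8 arrays (adjusted p = 0.477 each). The roller gene rol-1, outside that list, had 11.72, 12.93, 13.66 and 11.53 in Abeta worms, against 6.77, 13.37, 6.84 and 6.67 in GFP::degron worms. The adult collagen gene col-19 did not separate the strains, with 5.98, 8.87, 9.41 and 6.28 in Abeta worms and 5.61, 9.32, 5.29 and 4.87 in GFP::degron worms.

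Most molting regulators and heterochronic genes, which time the larval stages, had negative differences. Of 39 molting regulators 0 passed with all 8 arrays, and 30 had a negative difference, as had 9496 of all 17118 genes. Their median was -0.16, and 3 had an unadjusted p under 0.05, all lower, against 4.49% of all genes. The protease inhibitor gene bli-5 was at 7.27 to 7.81 in Abeta worms and 7.92 to 8.31 in GFP::degron worms, and mlt-7, a peroxidase of cuticle building, differed by -0.67 ± 0.245 (SE, adjusted p = 0.477 by limma). Of 16 heterochronic genes 14 had a negative difference, 0 passed, and the median was -0.32. At an unadjusted p under 0.05, 3 of the 16 were lower and 0 higher, against 4.49% and 5.84% of all genes. The gene lin-29, which drives the change from larval to adult skin, differed by -0.50 ± 0.205 (adjusted p = 0.479) and lin-46 by -0.98 ± 0.401 (adjusted p = 0.479). With the stage score in the fit the median of the heterochronic genes was -0.07 and that of the molting regulators 0.09.

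Most oocyte genes had small positive differences. Of 41 oocyte and eggshell genes 0 passed with all 8 arrays, 31 had a positive difference, 14 were higher and 1 lower at an unadjusted p under 0.05, against 5.84% and 4.49% of all genes, and the median difference was 0.33. The oocyte maturation gene oma-1 had 6.96, 7.71, 7.65 and 7.03 in Abeta worms, against 6.53, 7.05, 6.48 and 6.25 in GFP::degron worms. The egg activation gene egg-3 differed by 0.69 ± 0.205 (SE, adjusted p = 0.477 by limma), and the eggshell gene perm-2 by -0.15 ± 0.299 (adjusted p = 0.885). The germ granule gene pgl-1 differed by 0.33 ± 0.152 (adjusted p = 0.487), among 45 meiosis and germline genes with a median difference of 0.07.

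Yolk protein genes spread widely within a strain. The vitellogenin gene vit-2 had 4.72, 8.17, 9.76 and 7.76 in Abeta worms, against 0.00, 9.85, 4.51 and 3.73 in GFP::degron worms, a difference of 3.08 ± 1.92 (SE, adjusted p = 0.595 by limma). Replicate 2 of GFP::degron was the highest of the 8 arrays. For vit-1 the difference was 0.97 ± 0.749 (adjusted p = 0.681). With the stage score in the fit vit-2 was at -1.26 and vit-1 at -0.71, so the sign of these differences turned.

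Heat shock genes were examined because they answer misfolded protein in the cytosol. Of 24 measured cytosolic heat shock genes 0 passed with all 8 arrays, 3 were higher and 2 lower at an unadjusted p under 0.05, against 5.84% and 4.49% of all genes, and the median difference was -0.01. The small heat shock gene hsp-16.2 had 11.10, 10.95, 11.24 and 10.93 in Abeta worms, against 9.73, 10.78, 10.04 and 9.91 in GFP::degron worms. The groups did not overlap, and the difference was 0.94 ± 0.23 (SE, adjusted p = 0.477 by limma), or 1.92-fold. The inducible chaperone gene hsp-70, whose probe set can also match several transcripts, had 9.90, 9.93, 10.07 and 9.97 in Abeta worms, against 8.90, 9.79, 8.99 and 8.70 in GFP::degron worms, a difference of 0.87 ± 0.23 (adjusted p = 0.477). Without GFP::degron replicate 2 both passed, as did 0.976% of all genes on the higher side, hsp-16.2 by 1.16 ± 0.155 (adjusted p = 0.0301) and hsp-70 by 1.1 ± 0.142 (adjusted p = 0.026). With the stage score the differences were 0.50 and 0.46.

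The order of the strains at these genes was not the same at every hour. At T8 hsp-16.2 was at 8.74 ± 0.207 in Abeta worms and 9.5 ± 0.669 in GFP::degron worms (SD, n = 4 each), and hsp-70 at 7.06 ± 0.232 and 8.44 ± 0.753. At T12 hsp-16.2 was at 10.59 ± 0.824 (SD, n = 4) and 10.32 ± 0.665 (SD, n = 5). At T20 it was at 11.46 and 10.16, and hsp-70 at 10.31 and 9.04 (1 array each). Abeta worms thus had the lower mean at T8 and the higher at T16, but the departure of T16 from T8 and T12 did not pass for hsp-16.2 (1.19 ± 0.461, SE, adjusted p = 0.615 by limma) or hsp-70 (1.5 ± 0.544, adjusted p = 0.563). In GFP worms at T16 the levels were 8.81 ± 1.35 for hsp-16.2 and 7.27 ± 1.23 for hsp-70 (SD, n = 4 each), below both strains on average. The paralogous small heat shock gene hsp-16.41 had 11.47, 11.27, 11.72 and 11.42 in Abeta worms, against 10.44, 11.49, 11.18 and 11.20 in GFP::degron worms, with overlap.

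**Figure D4:**
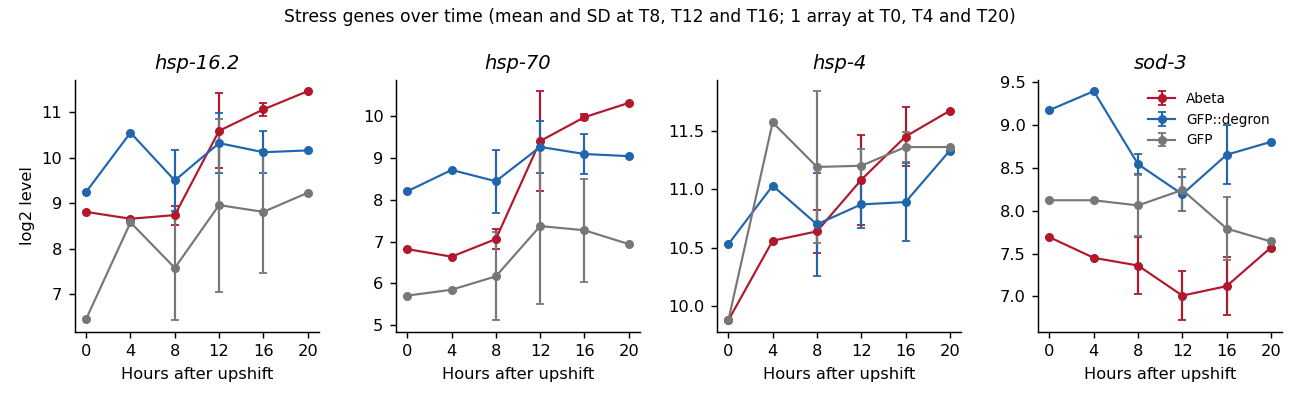
Log2 level (vertical axis) of 4 stress genes by hours after the upshift (horizontal axis) in Abeta (red), GFP::degron (blue) and GFP worms (grey); points are means with SD at T8, T12 and T16 (n = 4 or 5) and single arrays at T0, T4 and T20. For hsp-70 the Abeta mean lies below GFP::degron at T8 (7.06 and 8.44) and above it at T16 (9.97 and 9.09), whereas for sod-3 Abeta is the lowest strain at each hour.

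Stress genes of the endoplasmic reticulum and mitochondria did not pass with all 8 arrays or without replicate 2. In the endoplasmic reticulum, hsp-4, the worm BiP, had 11.30, 11.34, 11.83 and 11.35 in Abeta worms, against 10.98, 11.31, 10.73 and 10.55 in GFP::degron worms, a difference of 0.56 ± 0.206 (SE, adjusted p = 0.477 by limma). The abu gene abu-11 differed by -0.83 ± 0.275 (adjusted p = 0.477), and the 29 measured genes of this stress response had a median of -0.12. In mitochondria, hsp-6 differed by 0.03 ± 0.162 (adjusted p = 0.965), and the 15 mitochondrial stress genes had a median of -0.07 with 0 passing.

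The superoxide dismutase gene sod-3, a target of the insulin-regulated factor DAF-16, was lower in Abeta worms on every array. Its levels were 7.25, 7.52, 6.80 and 6.89 in Abeta worms, against 8.61, 8.28, 9.11 and 8.61 in GFP::degron worms. The difference of -1.54 ± 0.228 (SE, adjusted p = 0.186 by limma) did not pass with all 8 arrays, and it passed without replicate 2 (-1.66 ± 0.232, adjusted p = 0.0342). The order was the same at T0, with 7.69 in Abeta worms and 9.17 in GFP::degron worms (1 array each), and at T8 and T12. The GFP T16 level was 7.79 ± 0.365 (SD, n = 4), between them. Of 19 genes known as activated by DAF-16, 16 had a negative difference, as had 9496 of all 17118 genes, and the median was -0.11. An unadjusted p under 0.05 was held by 2 of them, both lower, against 4.49% of all genes. The other of the 2, hsp-12.6, had 4.76 to 5.29 in Abeta worms and 5.22 to 5.97 in GFP::degron worms.

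Other oxidative stress genes showed smaller differences. Of 30 such genes 0 passed with all 8 arrays, and the median was -0.04. At an unadjusted p under 0.05, 4 were lower and 0 higher, against 4.49% and 5.84% of all genes. The glutathione peroxidase genes gpx-2 and gpx-5 differed by -0.67 ± 0.224 and -0.45 ± 0.143 (SE, adjusted p = 0.477 each by limma). The levels of gpx-5 were 9.49, 9.56, 9.15 and 9.5 in Abeta worms, against 9.82, 9.78, 10.06 and 9.82 in GFP::degron worms. The glutathione transferase gene gst-4, a common reporter of the SKN-1 response, differed by 0.13 ± 0.241 (adjusted p = 0.88).

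Degradation genes did not pass in either pathway with all 8 arrays or without replicate 2. Of 27 autophagy genes 22 had a negative difference, as had 9496 of all 17118 genes, and the median was -0.16. An unadjusted p under 0.05 was held by 6 of them, all lower, against 4.49% of all genes. The cargo receptor gene sqst-1 averaged 9.8 ± 0.248 in Abeta worms and 10.42 ± 0.322 in GFP::degron worms (SD, n = 4 each), a difference of -0.63 ± 0.202 (SE, adjusted p = 0.477 by limma). The autophagosome gene lgg-2 differed by -0.61 ± 0.199 (adjusted p = 0.477), with no overlap of the strains. Proteasome subunits had a median of 0.10 over 33 genes, 26 of them positive, and 0 with an unadjusted p under 0.05. With the stage score the autophagy median was -0.07.

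Muscle genes did not pass with all 8 arrays or without replicate 2. Of 42 body-wall sarcomere genes 0 passed, 1 had an unadjusted p under 0.05, lower, against 4.49% of all genes, and the median was -0.02. The myosin heavy chain gene unc-54 differed by 0.26 ± 0.198 (SE, adjusted p = 0.676 by limma) and myo-3 by -0.14 ± 0.228 (adjusted p = 0.86). The troponin gene tni-1 differed by -0.42 ± 0.171 (adjusted p = 0.479), and it is the gene with an unadjusted p under 0.05. Of 16 pharyngeal muscle and gland genes 14 had a negative difference, as had 9496 of all 17118 genes. Of the 16, 0 had an unadjusted p under 0.05, and the median was -0.28. A p that misses the threshold does not show that these levels are equal.

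Most neuronal genes had small negative differences. Of 75 neuropeptide genes 0 passed, 70 had a negative difference, as had 9496 of all 17118 genes, 18 were lower and 2 higher at an unadjusted p under 0.05, against 4.49% and 5.84% of all genes, and the median was -0.34. Their mean level was 7.36, 7.31, 6.86 and 7.34 in Abeta worms, against 7.56, 7.11, 7.72 and 7.75 in GFP::degron worms, with replicate 2 of GFP::degron among the Abeta arrays. The GFP worms of T16 had a mean level of 6.78. With the stage score in the fit the median was -0.01. Of the 75, 0 were among the 500 genes that set the score, but those are only 2.92% of all genes. The part of developmental timing in this difference was not tested, because strain and stage score differ together at T16. The neuropeptide gene nlp-80 was lower by 0.82 on the log2 scale (difference -0.82 ± 0.244, SE, adjusted p = 0.477 by limma), whereas nlp-7 differed by 0.52 ± 0.144 (adjusted p = 0.477).

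Of 41 neuronal markers 37 had a negative difference, as had 9496 of all 17118 genes, and the median was -0.25. An unadjusted p under 0.05 was held by 8 of them, all lower, against 4.49% of all genes. The choline transporter gene cho-1 had 5.26, 5.03, 4.67 and 5.13 in Abeta worms, against 5.96, 5.46, 5.76 and 5.58 in GFP::degron worms, and unc-104, the kinesin that carries synaptic vesicles, differed by -0.76 ± 0.213 (SE, adjusted p = 0.477 by limma). Of 24 insulin-like peptide genes 18 had a negative difference, with a median of -0.31. At an unadjusted p under 0.05, 5 of the 24 were lower and 0 higher, against 4.49% and 5.84% of all genes. The gene ins-5 had 6.74, 6.64, 5.77 and 6.38 in Abeta worms, against 7.66, 6.63, 7.59 and 7.71 in GFP::degron worms, where replicate 2 alone overlapped the Abeta arrays. With the stage score the medians were -0.05 for neuronal markers and 0.04 for insulin-like peptides.

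**Figure D5:**
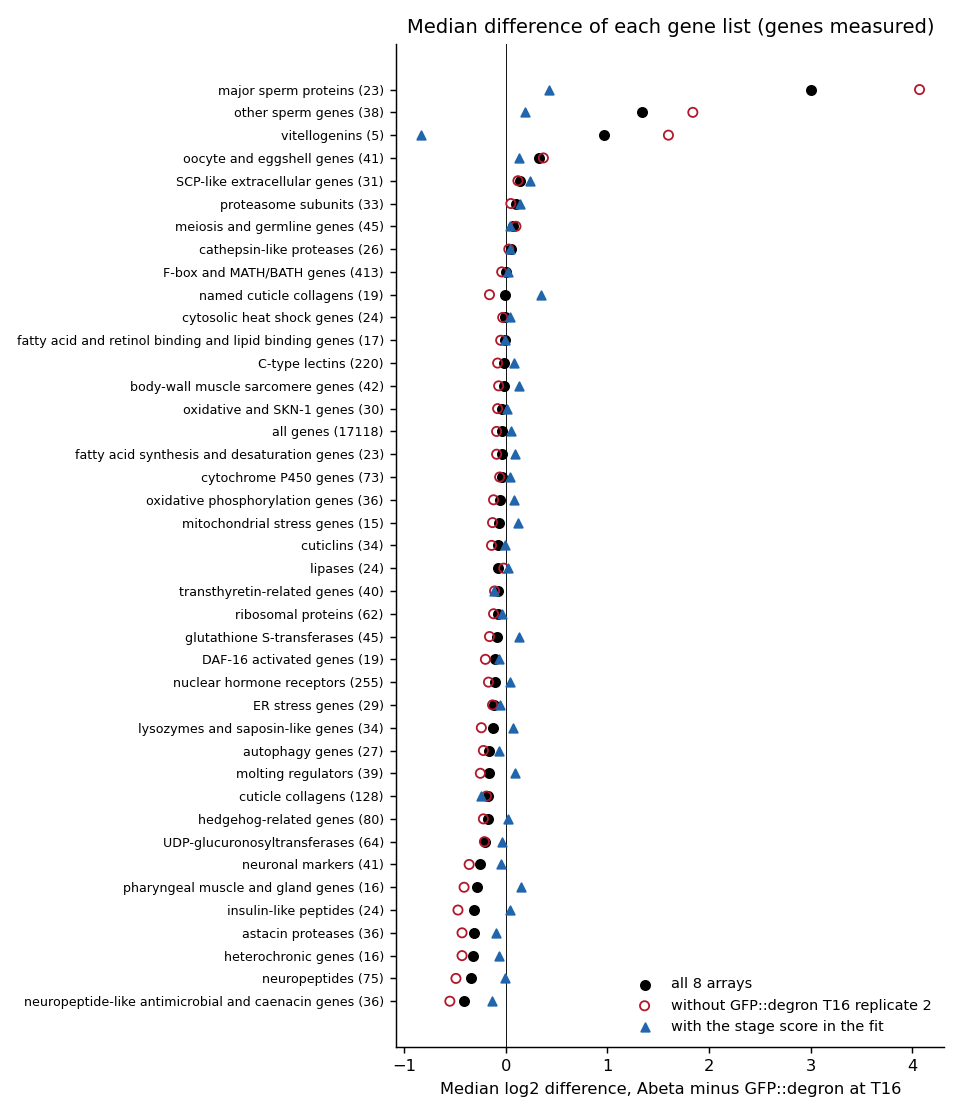
Median log2 difference, Abeta minus GFP::degron at T16 (horizontal axis), of each gene list and of all genes, with genes measured in brackets; black points are from all 8 arrays, open red circles from 7 arrays without GFP::degron replicate 2, and blue triangles from 8 arrays with the stage score in the fit. The major sperm proteins lie at 3.00, 4.07 and 0.43, and neuropeptides at -0.34, -0.49 and -0.01.

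Immune and metabolic families held few members that stood apart. The antimicrobial and caenacin peptide genes, 36 measured, had a median of -0.41 with 6 lower and 1 higher at an unadjusted p under 0.05, against 4.49% and 5.84% of all genes. Among them cnc-4 differed by -0.76 ± 0.262 and fipr-24 by -0.88 ± 0.289 (SE, adjusted p = 0.477 each by limma). The 220 C-type lectins had a median of -0.02, and without replicate 2, 4 of them passed, all higher, against 0.976% of all genes, such as clec-123 by 4.55 ± 0.425 (adjusted p = 0.00604). The cytochrome P450 gene cyp-14A2 had 6.41, 6.13, 6.36 and 5.50 in Abeta worms, against 4.39, 4.53, 5.20 and 5.14 in GFP::degron worms, with no overlap (adjusted p = 0.477).

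Lipid genes gave small differences of both signs. The fatty acid and retinol binding gene far-2 differed by 0.72 ± 0.193 with all 8 arrays (SE, adjusted p = 0.477 by limma) and by 0.87 ± 0.173 without replicate 2 (adjusted p = 0.0621). Its relative far-8 lay between 9.94 and 10.27 in Abeta worms and between 10.42 and 11.01 in GFP::degron worms, and passed without replicate 2 (-0.90 ± 0.152, adjusted p = 0.0499). The desaturase gene fat-3 differed by 0.67 ± 0.195 with all 8 arrays (adjusted p = 0.477). The secreted SCP-like gene scl-24 had 6.73, 7.63, 6.44 and 6.49 in Abeta worms, against 5.27, 5.09, 5.40 and 6.47 in GFP::degron worms, so the strains touched at 1 array (difference 1.26 ± 0.365, adjusted p = 0.477). In mitochondria the cytochrome c gene cyc-2.2, with 12.00, 12.82, 13.25 and 11.97 in Abeta worms, against 5.58, 12.61, 9.83 and 5.97 in GFP::degron worms, had replicate 2 of GFP::degron among the Abeta arrays and the other 3 below them.

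The 24 genes that were lower without replicate 2 had another pattern than the higher ones. Their median difference was -1.46 without replicate 2, -1.36 with all 8 arrays and -1.07 with the stage score. None of the 24 was among the 500 stage genes, but those are only 2.92% of all genes, so this count does not set the 24 apart. GFP::degron replicate 2 lay on the Abeta side of the midpoint for 8 of the 24. The T12 mean of Abeta worms lay on the Abeta side for 22 and that of GFP::degron worms for 8. The GFP T16 mean lay on the Abeta side for 19. For most of them the T12 means thus already lay on the sides seen at T16, but not for all. At T12 rol-6 was at 13.11 in Abeta and 13.05 in GFP::degron worms, and ZK1307.2 at 6.92 and 6.47.

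Named by size or from the rule, these lower genes included oac-51, npr-28, nspb-10 and F15D4.5. The acyltransferase-like gene oac-51 had 5.60, 5.37, 4.96 and 4.88 in Abeta worms, against 7.15, 6.25, 7.34 and 7.23 in GFP::degron worms (without replicate 2, -2.04 ± 0.207, SE, adjusted p = 0.00932 by limma). The neuropeptide receptor gene npr-28 had 4.76, 4.69, 4.04 and 4.60 in Abeta worms, against 6.40, 5.55, 5.99 and 5.84 in GFP::degron worms (without replicate 2, -1.55 ± 0.23, adjusted p = 0.0369). The groups did not overlap in either gene. For nspb-10 the difference was -1.82 ± 0.264 with all 8 arrays (adjusted p = 0.174) and -2.04 ± 0.215 without replicate 2 (adjusted p = 0.0108), and for F15D4.5 -1.63 ± 0.237 (adjusted p = 0.174) and -1.46 ± 0.217 (adjusted p = 0.0369). F15D4.5 stood at 8.96 ± 0.109 in GFP worms at T16, above both strains, whose means were 6.54 ± 0.352 in Abeta worms and 8.17 ± 0.356 in GFP::degron worms (SD, n = 4 each).

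Further lower genes passed without replicate 2 but have no role given here. They were C33H5.1 (-3.18 ± 0.5, SE, adjusted p = 0.0437 by limma), Y105C5B.20 (-2.61 ± 0.381, adjusted p = 0.0369), C14C6.12 (-1.46 ± 0.198, adjusted p = 0.0306) and ZK1307.2 (-1.31 ± 0.205, adjusted p = 0.0437). With all 8 arrays their differences were -2.55, -2.42, -1.31 and -1.24 and did not pass. C14C6.12 was chosen after its values were seen.

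Large differences without replicate 2 on the higher side were also found outside the sperm and collagen lists, with GFP::degron replicates 1, 3 and 4 far below the other 5 arrays. ZK1248.17 had 13.45, 15.18, 15.65 and 13.50 in Abeta worms, against 4.04, 14.78, 4.30 and 3.98 in GFP::degron worms. Without replicate 2 its difference was 10.34 ± 0.562 (SE, adjusted p = 0.000735 by limma), that of Y51H7C.1 8.52 ± 0.561 (adjusted p = 0.00184), that of ZK546.3 8.31 ± 0.63 (adjusted p = 0.00294) and that of C35E7.10 5.85 ± 0.404 (adjusted p = 0.0022). At T20 the level of ZK1248.17 was 15.40 in Abeta worms and 14.72 in GFP::degron worms (1 array each), so the gap at T16 was not seen 4 h later. With all 8 arrays none of the 4 passed (adjusted p = 0.477 each), and ssp-10, a sperm-specific gene, likewise differed by 4.09 ± 0.674 only without replicate 2 (adjusted p = 0.049).

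On the higher side, 6 genes had the smallest p among those that did not pass with all 8 arrays. None of the 6 was among the 500 stage genes, but those are only 2.92% of all genes. Y17D7B.7 had 9.91, 10.06, 9.99 and 9.87 in Abeta worms, against 9.0, 9.14, 8.65 and 9.0 in GFP::degron worms, a difference of 1.01 ± 0.145 (SE, adjusted p = 0.174 by limma). The ion channel gene lgc-18 differed by 2.11 ± 0.378 (adjusted p = 0.339) at low levels, from 2.35 to 3.68 in Abeta worms and -0.01 to 1.43 in GFP::degron worms. Its order was the reverse at T12, with 0.81 ± 0.927 (SD, n = 4) in Abeta worms and 3.02 ± 0.965 (SD, n = 5) in GFP::degron worms. The departure of T16 from T8 and T12 did not pass for lgc-18 (3.21 ± 0.726, SE, adjusted p = 0.421 by limma). C36C5.12 differed by 1.81 ± 0.344 (adjusted p = 0.43), Y43D4A.5 by 1.46 ± 0.293, M03B6.1 by 1.04 ± 0.21 and the chemoreceptor gene srh-123 by 1.35 ± 0.265, the last at levels of 3.57 to 4.07 in Abeta worms and 1.79 to 3.01 in GFP::degron worms. In each of these 6 genes the strains did not overlap, as in 310 of all 17118 genes on the higher side (1.81%). The 6 were chosen by small p on the same arrays, so this follows in large part from the choice. C36C5.12, Y43D4A.5 and Y17D7B.7 passed without replicate 2, at adjusted p = 0.00475, 0.0195 and 0.0367, and the other 3 did not.

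The stage score in the fit of all 8 arrays left 3 genes past the threshold (0.0175%). They were gtnt-8 (-7.59, adjusted p = 1.56e-06 by limma), str-125 (2.79, adjusted p = 0.00908) and rnh-1.3 (-1.71, adjusted p = 0.0428). An unadjusted p under 0.05 was held by 853 genes (4.98%) with the score and by 1769 (10.3%) without it. The differences of F14F8.8, K09C6.9 and lact-4 were then -3.43, -1.96 and 1.13, with adjusted p = 0.128, 0.0537 and 0.151.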

How the data were processed

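Of 47 Affymetrix arrays of whole RNA, 8 were compared, and arrays of other hours were used where named. The deposited values are probe set intensities on a linear scale, made by the authors. Per the submitters' processing notes the tool was Affymetrix Expression Console 1.1. How probes were summarised and arrays scaled is not given in the sources used here. Per the labels' protocols, 5 µg of total RNA per sample was labelled. Of 22625 probe sets, 77 controls and those naming several genes (887) or none (895) were left out. Names came from the platform annotation, and 20701 of 20766 matched the RefSeq table of WBcel235. A gene was represented by its probe set of highest mean over 47 arrays, which left 17118 genes.

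Values were log2(intensity + 1), centred on each array's median and shifted back by the mean median. Groups were compared with limma 3.58.1 in R 4.3.3 (lmFit and eBayes on the 8 arrays, no covariate, no filter), with Benjamini-Hochberg adjustment; the departure test used 25 arrays and 1 mean per group. The fit was tested on simulated data. Alternatives were quantile normalization, no centring, a pseudocount of 16, genes of mean intensity 32 or more, the spread from 38 arrays, the replicate number as a block, the stage score as a covariate, an intensity trend with robust moderation, array weights, all probe sets, and each array left out. Tables and plots used python 3.11.15, pandas 2.3.3, numpy 2.4.6 and matplotlib 3.10.9.

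The comparison, the 40 gene lists and the named genes were chosen with earlier results of these data known. Named were passing genes without overlap, then up to 8 a direction by smallest p, up to 3 passing members of each list or else the 2 of smallest p, genes with a departure at T16, and a fixed set of stress, muscle, cuticle and yolk genes, of which aip-1 was not measured alone. Members of lists that the text does not describe are not named. Genes named because they passed without GFP::degron replicate 2 were chosen after their values were seen.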

Additional observations from a re-analysis of the deposited data

Results flagged for a closer look

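In groups of 4 arrays, 1 array was set apart from the others when its gap to the nearest one took most of the group's range, by Dixon's criterion. Of 184 groups of named genes and gene lists, 19 had such an array, and chance gives about 1 in 20. In 11 of the 19 the array was GFP::degron replicate 2. Many of the named genes were chosen because they passed without that array. Both the 19 and the 11 thus follow in part from the choice and cannot be set against the 1 in 20. It was the highest of its group for col-19 (9.32), col-63 (19.04), rol-1 (13.37), ssq-2 (12.69), ZK1248.17 (14.78), Y51H7C.1 (15.34) and C35E7.10 (10.92) and for the mean of the oocyte and eggshell genes (7.93). It was the lowest for K09C6.9 (9.28), ins-5 (6.63) and oac-51 (6.25). The other GFP::degron case was replicate 3, highest for gpx-5 (10.06).

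Among Abeta arrays, replicate 3 was the highest for hsp-4 (11.83) and snf-10 (6.29) and the lowest for gpx-5 (9.15) and for the mean of the neuropeptides (6.86). Abeta replicate 2 was the highest for far-8 (10.27), replicate 1 the highest for lin-29 (7.80) and replicate 4 the lowest for bli-5 (7.27).

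The strain difference of str-125 departed at T16 from that at T8 and T12 by 3.47 (adjusted p = 2.24e-06 by limma), at intensities near the bottom of the scale.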

How the results depend on the processing

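Against 2 genes higher and 4 lower with all 8 arrays, quantile normalization and all probe sets gave 2 and 4. Higher genes numbered 1 without centring, 1 with a pseudocount of 16, 1 among genes of mean intensity 32 or more, 10 with the spread from 38 arrays, 1 with the stage score and 5 with array weights. Lower genes numbered 12 with the spread from 38 arrays, 2 with the stage score, 12 with trend and robust moderation and 16 with array weights. Leaving out 1 array gave 1 to 167 higher and 2 to 24 lower, the upper ends without GFP::degron replicate 2. The departure count of 1 became 0 under quantile normalization, a pseudocount of 16, the intensity filter and trend with robust moderation (limma, with 1645, 1523, 957 and 1208 genes at an unadjusted p under 0.05), 184 with array weights, and 1 to 288 on leaving out an array. The cause was not tested.

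The replicate number as a block gave 0 higher (1251 at an unadjusted p under 0.05, limma) and 1 lower, gtnt-8, and the other 5 calls had adjusted p of 0.0534 (str-125) to 0.323 (lact-4). Same-numbered arrays had deviations correlated at 0.35, 0.15, -0.18 and 0.25. The third pair is negative, so the numbers were not taken as pairs, although 3 of 4 Abeta arrays correlated best with their own number.

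Differences without a call changed sign for hsp-6 (-0.05 to 0.14 on leaving out an array), gst-4 (-0.04 to 0.27, and -0.04 with the stage score), myo-3 (-0.25 to 0.09, and 0.01 with the stage score), perm-2 (-0.31 to 0.10), and with the stage score for vit-2 (-1.26), vit-1 (-0.71) and col-19 (-1.09). The number of arrays and dim signal limit what can be seen: str-125 and lgc-18 rest on intensities of a few units.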
